A study of Drosophila melanogaster with 3 samples.

Results

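Among the binding sites of CG34224, a fly protein known only by its gene number, in whole embryos, 318 peaks lay in the upstream part of a promoter, with the summit more than 150 and at most 500 bp before the nearest protein-coding start site on that gene's strand and with no start site of another protein-coding gene on the opposite strand within 500 bp of the summit. They were taken from the conservative list of reproducible peaks of the whole series, in which the summit is the peak start plus the deposited summit offset, and they made up 7.24% of its 4393 peaks on the main chromosome arms. The 318 peaks stood before 301 genes. Single promoter peaks with the summit 0 to 150 bp upstream, 1270 in number, served as the comparison and are called the start-proximal peaks.

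The protein was precipitated from whole embryos of the strain CG34224-GFP, collected 0 to 24 h after laying, with an antibody against GFP that recognises the eGFP fused to CG34224. The 3 libraries are numbered as biological replicates, form 1 group and share the 1 transgenic strain, so every value describes the fusion protein in a mixture of all embryonic tissues and stages. The labels also point to a control experiment, which is not analysed here. Sheared fragments were 200 to 800 bp long, which limits how finely a summit can be placed.

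Fly promoters fall broadly into classes by the sequences they carry. Many housekeeping promoters hold the DNA replication-related element (DRE), bound by Dref, or the core promoter elements known as Motif 1, Motif 6, Motif 7 and the E-box, close to the start site, and the CGATA core is shared by the sites of Dref and the insulator protein BEAF-32. Promoters of developmental genes more often carry GAGA repeats, bound by the GAGA factor Trl, or a TATA box, and tRNA genes have their promoter inside the gene, in the A and B boxes.

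The sequence under selected summits is shown first, since the results below turn on such sequences. Each was chosen with a sequence element to mark, and stronger peaks were passed over, so they are examples and not the strongest in order. Their signals ran from 431.22, before Spag1, to 1539.80, before CG14441. Of all 318 summits, 45.9% held none of the 15 consensus sequences searched. Each line is the summit with 50 bp on either side, read 5′ to 3′ on the strand of the gene, so that the start site lies beyond the right end, on assembly dm6 from the RefSeq Release 6 genome. The strongest peak of all, before CG14441 (chrX:6699291-6699391, plus strand), and the peak before drn (chr3R:9341642-9341742, plus strand) were AT-rich, and capitals mark the TATA box TATAAA on either strand.
CG14441: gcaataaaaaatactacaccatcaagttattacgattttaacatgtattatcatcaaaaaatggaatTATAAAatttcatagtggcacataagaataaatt
drn: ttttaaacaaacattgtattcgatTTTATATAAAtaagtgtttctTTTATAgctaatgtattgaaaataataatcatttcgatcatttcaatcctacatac

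The peaks before bun (chr2L:12546726-12546826, minus strand) and nsl1 (chr3R:15793565-15793665, plus strand) held the core CGATA, in capitals on either strand, without a full DRE.
bun: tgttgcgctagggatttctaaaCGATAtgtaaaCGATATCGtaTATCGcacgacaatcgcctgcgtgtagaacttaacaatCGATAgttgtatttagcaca
nsl1: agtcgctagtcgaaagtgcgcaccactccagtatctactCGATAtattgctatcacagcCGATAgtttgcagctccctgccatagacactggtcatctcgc

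The peaks before CG31493 (chr3R:7131016-7131116, plus strand), CG31122 (chr3R:18413012-18413112, minus strand) and RpL6 (chr3R:31596379-31596479, minus strand) held the DRE, TATCGATA, in capitals.
CG31493: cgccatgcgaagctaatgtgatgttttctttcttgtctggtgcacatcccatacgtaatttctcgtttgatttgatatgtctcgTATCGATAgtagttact
CG31122: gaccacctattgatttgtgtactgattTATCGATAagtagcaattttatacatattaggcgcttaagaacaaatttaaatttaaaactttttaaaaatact
RpL6: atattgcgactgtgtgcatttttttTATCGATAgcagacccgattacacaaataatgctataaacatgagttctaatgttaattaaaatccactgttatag

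The peaks before kug (chr3L:20006341-20006441, plus strand), Mob2 (chr3L:11553404-11553504, minus strand) and cpo (chr3R:17943902-17944002, plus strand) held the repeat GAGAGAG, in capitals on either strand; overlapping copies run together.
kug: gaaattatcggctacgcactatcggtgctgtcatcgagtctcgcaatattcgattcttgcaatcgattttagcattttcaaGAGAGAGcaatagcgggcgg
Mob2: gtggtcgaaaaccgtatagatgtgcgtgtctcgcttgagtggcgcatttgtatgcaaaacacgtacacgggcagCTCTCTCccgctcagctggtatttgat
cpo: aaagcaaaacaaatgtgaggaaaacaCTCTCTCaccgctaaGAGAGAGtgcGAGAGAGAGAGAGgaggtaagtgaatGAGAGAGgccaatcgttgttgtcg

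The peak before Jupiter (chr3R:11604855-11604955, minus strand), the strongest of those exactly at the lower bound of the distance, held the E-box CAGCTG, in capitals. The peak before Spag1 (chr3R:26947449-26947549, plus strand) lay 84 bp from the start of a tRNA gene and held TATAAA on the opposite strand, in capitals as TTTATA.
Jupiter: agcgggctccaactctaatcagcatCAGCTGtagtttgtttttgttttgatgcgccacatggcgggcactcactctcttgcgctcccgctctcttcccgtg
Spag1: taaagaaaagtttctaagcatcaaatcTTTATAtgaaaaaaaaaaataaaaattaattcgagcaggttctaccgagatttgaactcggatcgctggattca

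Most of the summits were close to the lower bound. The median distance was 227 bp, with 123 peaks at up to 200 bp, 117 beyond that up to 300 bp, 42 up to 400 bp and 36 up to 500 bp. In steps of 50 bp, the single promoter peaks numbered 631, 439 and 200 in the steps up to 150 bp, and 123, 72, 45, 27, 15, 15 and 21 in the steps beyond it up to 500 bp. The count therefore declined without a break at 150 bp and rose again only in the last step, from 15 to 21. Whether the 318 peaks are the upstream tail of a single distribution of promoter summits was not tested. At the lower bound, the peaks before Jupiter, CG9932 and MEP-1 lay inside by 1 bp with signals of 471.27, 253.37 and 183.33, and those before abd-A, cic and HmgD lay outside at 150 bp with signals of 326.89, 191.72 and 166.2. At the upper bound, the peaks before CG14314, CG31493 and CG7139 lay inside at 498, 494 and 493 bp, and those nearest to Roc1a, wdp and CG12896 lay outside at 503, 506 and 508 bp.

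**Figure D1:**
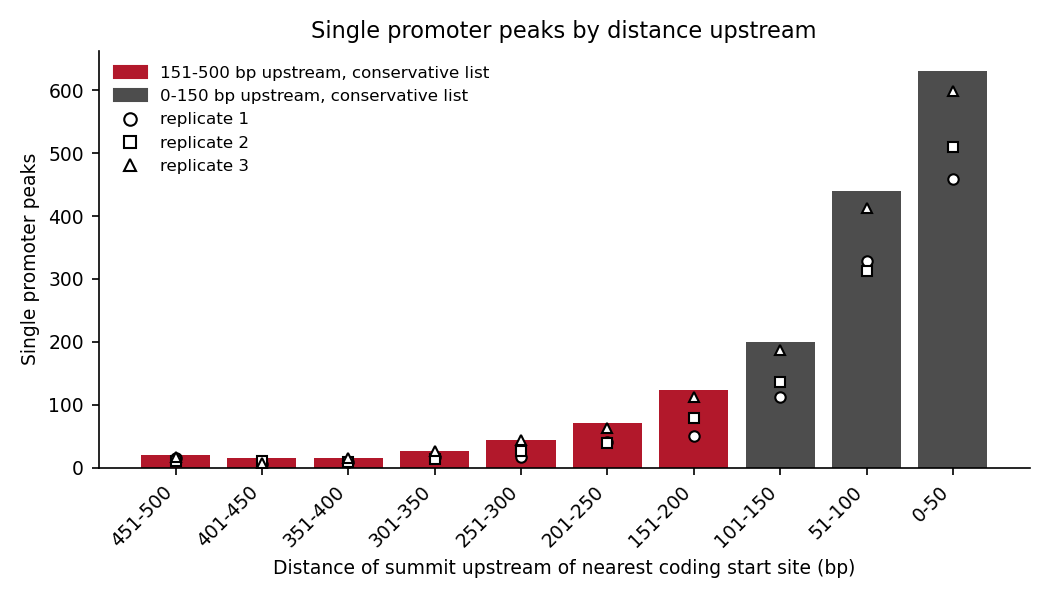
Number of single promoter peaks (y axis) by the distance of the summit upstream of the nearest coding start site in bp (x axis, start site to the right); bars give the conservative list, red beyond 150 bp and grey up to 150 bp, and open symbols the 3 replicate lists. The first red bar reaches 123 peaks and the last 21, against 631 peaks in the grey bar at 0 to 50 bp.

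The class held a similar part of the promoter peaks in each library. It made up 6.74% of 2345 promoter peaks in replicate 1, 7.63% of 2504 in replicate 2 and 8.46% of 3404 in replicate 3, with a mean of 7.61 ± 0.86% (SD, n = 3). The share was highest in replicate 3, which also had the longest list, with 4145 peaks on the main arms against 2667 in replicate 1 and 2841 in replicate 2. The peak lists carry no read counts, and the depth of the libraries is not known; only the lengths of the lists can be compared.

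By the deposited signal, the peak caller's value, which has no stated scale and is comparable only within a list, these peaks were weaker than the start-proximal ones. In the conservative list their signal was at least 28.99 and at most 1539.80 with a median of 202.19, against 301.99 for the start-proximal peaks. Expressed as a percentile of each replicate's own list, the median was 40.10, 38.23 and 45.56 in replicates 1, 2 and 3, against 62.39, 61.47 and 63.92 for the start-proximal peaks. The difference was negative in all 3 replicates and averaged -21.30 ± 2.59 percentile points (SD, n = 3; exact sign-flip permutation test, 2-sided, p = 0.25). With 3 replicates this test cannot give a p below 0.25, so here and below the size of a difference is to be read against its SD over replicates; nothing beyond the labels' replicate numbers says how independent the 3 collections were. The order depends on the comparison: against single promoter peaks with the summit downstream of the start site the difference was 9.38 percentile points. The median peak width was the same for both classes, 410, 440 and 470 bp in replicates 1, 2 and 3, because it was the most frequent width of each list. That width was found in 87.3%, 81.2% and 86.8% of these peaks, against 62.8%, 52.7% and 61.9% of the start-proximal peaks, and in the upper 50% by signal the medians differed by 179.00 bp. In the conservative list 78.6% of these peaks had the most frequent width, 536 bp, against 49.4% of the start-proximal peaks.

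The 20 strongest of the peaks were each found in all 3 replicate lists, where their signals ran from 132.69 to 413.21 in replicate 1, 106.34 to 467.31 in replicate 2 and 200.98 to 627.19 in replicate 3. Of the 20, 16 lay at most 300 bp upstream, 11 were intergenic and 6 lay inside the gene they were assigned to. The CGATA core was present in 11, the DRE in 5, a TATA box in 5 and GAGA in 3, and 5 held none of these. The peak before CG14441, 167 bp upstream on arm X, had signals of 413.21, 467.31 and 627.19 in replicates 1, 2 and 3 and was the eighth strongest of the whole conservative list. Next came the peak before tej, which encodes a Tudor-domain protein of the germline piRNA pathway, with 247.12, 262.20 and 488.49, and its summit stood 473 bp upstream. The peak before bun, a member of the TSC22 family of transcription factors, had 285.42, 240.19 and 451.01. All 3 thus ranked in the upper end of every list, while most of the class did not.

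The peak before nsl1, the scaffold subunit of the NSL histone acetyltransferase complex, had signals of 242.33, 275.88 and 418.44 in replicates 1, 2 and 3. Before Eno, the glycolytic enzyme enolase, the signals were 201.65, 275.50 and 384.61, at a summit in an intron of Eno itself. The peak before kug, an atypical cadherin also known as Fat2, had 196.15, 197.86 and 354.11. These 3 peaks had their summits at 167, 205 and 193 bp, in intergenic sequence for nsl1 and in an intron of the own gene for the other two. The remaining genes of the 20 were CG8547, drn, CG31493, Sox14, CG31122, Mob2, chk, alpha-Man-IIb, CG31633, CG5004, l(2)k01209, IntS4, CG18549 and Hsp60A. Among them Sox14 is a transcription factor of the ecdysone response, Mob2 an activator of NDR family kinases, chk a monocarboxylate transporter, IntS4 a subunit of the Integrator complex and Hsp60A a mitochondrial chaperonin.

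The position of the summit was less sharply repeated than at the start-proximal peaks. Of the matched peaks, 106 of 148 in replicate 1, 130 of 171 in replicate 2 and 177 of 236 in replicate 3 again had the summit more than 150 and at most 500 bp upstream of the same start site, a mean of 74.2 ± 2.3% (SD, n = 3). Most of the others moved towards the start site, 34, 36 and 51 in replicates 1, 2 and 3, and 8, 5 and 8 moved beyond 500 bp. The median shift between the conservative and the replicate summit was 29, 25 and 27 bp in replicates 1, 2 and 3, against 11, 13 and 12 bp for the start-proximal peaks. Among the 117 peaks found in all 3 lists, 71 had all 3 replicate summits in that range and 14 had none there. A matched peak could have its summit elsewhere. The peak before CG14314, 498 bp upstream and of signal 32.02, was matched to summits at 708, 680 and 690 bp, and that before ND-13B, a subunit of respiratory complex I, to summits from 8 bp downstream to 5 bp upstream. Close summits could also share 1 replicate match, as both peaks before CG7139 did in replicate 1. Among the 20 strongest, 17 had all 3 replicate summits in the range. The exceptions were alpha-Man-IIb, a Golgi mannosidase, with replicate summits at 551, 559 and 556 bp, chk at 120, 157 and 120 bp, and IntS4 at 163, 146 and 166 bp.

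**Figure D2:**
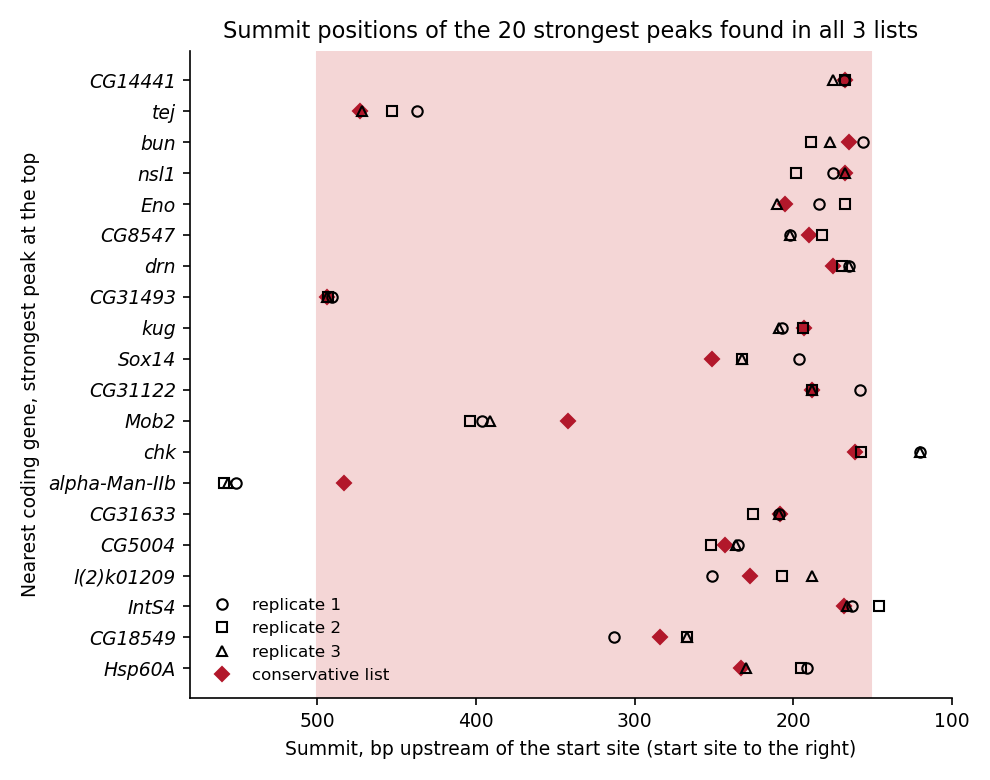
Position of the summit in bp upstream of the start site (x axis, start site to the right) for the 20 strongest peaks found in all 3 replicate lists (rows, strongest at the top); red diamonds give the conservative list, open symbols the 3 replicates, and the shaded band the range of the class. All symbols of CG31493 fall between 491 and 494 bp, while the 3 replicate summits of alpha-Man-IIb lie outside the band.

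Fewer of these peaks than of the start-proximal ones were found again in every library. A peak counted as found when it overlapped a thresholded replicate peak by at least 50% of the shorter one. The conservative list was derived from the alignments of all 3 replicates, so being found is not an independent recovery. Replicates 1, 2 and 3 contained 46.5%, 53.8% and 74.2% of the 318 peaks, against 68.9%, 73.1% and 87.7% of the start-proximal peaks. All 3 lists contained 117 of the 318, or 36.8% (95% Wilson interval 31.7 to 42.2%, counting error only), against 60.9% of the start-proximal peaks and a background of 47.3% over all conservative peaks. Another 61 were in 2 lists, 82 in 1 and 58 in none, and of the 82 in 1 list, 60 were in replicate 3. In the replicates' ranked lists, which keep peaks below the IDR threshold, 301 of the 318 had an overlapping entry in all 3 replicates, and so did 48 of the 58 that no thresholded list held. The ranked lists were not counted in this way for the start-proximal or all conservative peaks, so these counts have no background beside them.

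Strength and recovery moved together, which is partly built in, since the same libraries gave both and the replicate lists were cut at a threshold. The median signal in the conservative list was 141.3 for peaks found in no replicate list, 173.7 for those in 1, 226.3 for those in 2 and 328.9 for those in 3. In the upper 25% of the conservative list by signal, 93.2% of the 44 peaks of this class were in all 3 lists, against 98.4% of 503 start-proximal peaks. In the next 25% the shares were 55.4% of 92 and 67.5% of 329, in the next 11.5% of 87 and 15.3% of 275, and in the lowest 15.8% of 95 and 8.59% of 163. Over all conservative peaks the shares were 97.9%, 61.8%, 13.9% and 15.3%, from the strongest range to the lowest. Of the class, 13.8% was in the upper 25%, against 39.6% of the start-proximal peaks, and within each of these ranges the shares were closer than the 36.8% and 60.9% over all strengths.

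**Figure D3:**
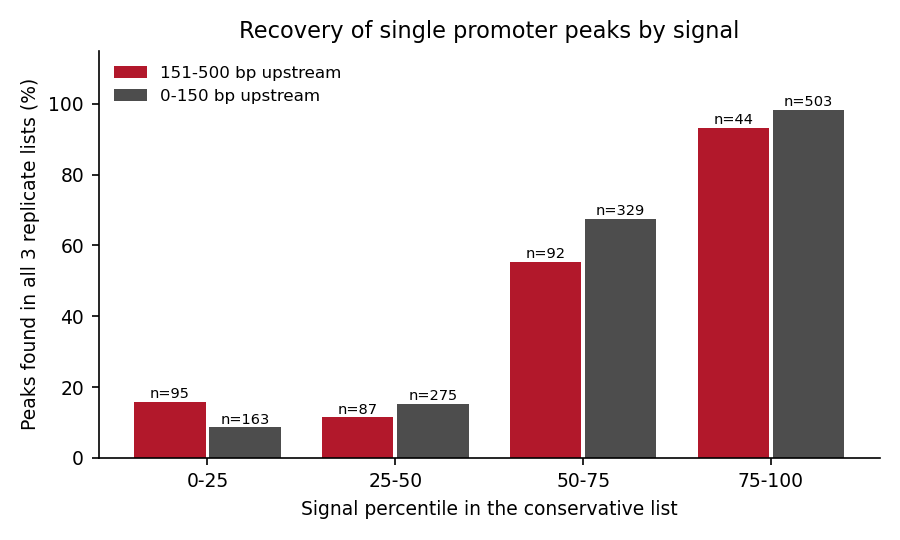
Share of peaks found in all 3 replicate lists in percent (y axis) by signal percentile in the conservative list (x axis), for the upstream peaks (red) and those 0 to 150 bp upstream (grey), with the number of peaks above each bar. The red bars stand at 15.8% and 11.5% in the lowest 25% and the next 25% of the list and at 93.2% in the strongest 25%, where the grey bar reaches 98.4%.

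The sequence under the summits differed from that of the start-proximal peaks in most of the promoter elements searched. On both strands of these windows of the summit with 50 bp on either side, the DRE was present in 9.49%, 12.04% and 6.25% of the class in replicates 1, 2 and 3, against 28.67%, 27.77% and 22.70% of the start-proximal peaks. The difference averaged -17.12 ± 1.82 percentage points (SD, n = 3; exact sign-flip permutation p = 0.25, adjusted p = 0.312 over 15 consensus sequences). The shorter CGATA, which every DRE contains, was present in 31.01%, 31.41% and 25%, against 73.33%, 72.76% and 61.94%, a difference of -40.20 ± 2.87 points. Both were lower in all 3 replicates and neither pair of ranges overlapped. In the conservative list the DRE was at 5.35% of these summits, against 23.5% of the start-proximal ones and 14.2% of all conservative peaks. It was more frequent than in the window 227 bp upstream of the 5′ ends of all 13968 protein-coding genes, where 1.55% held it.

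The other elements of housekeeping promoters were likewise less frequent, each in all 3 replicates (exact permutation p = 0.25 and adjusted p = 0.312 for each). The E-box was at 6.87 ± 1.32% of the summits, against 12.85 ± 0.51% of the start-proximal ones (SD, n = 3 each). Motif 7 was at 3.01 ± 0.86%, against 10.73 ± 0.96%. Motif 1, bound by M1BP, was at 0.71 ± 0.49%, against 2.67 ± 0.25%. Motif 6 was rare in both, at 0.41 ± 0.36% and 0.88 ± 0.14%. In the windows 227 bp upstream of all 13968 genes these elements were at 4.34% for the E-box, 2.05% for Motif 7, 0.53% for Motif 1 and 0.48% for Motif 6, with 14.81% for the CGATA core. Of the 318 summits, 45.9% held none of the 15 consensus sequences, against 20.6% of the start-proximal summits.

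GAGA and TATA went the other way. GAGA was present in 12.03%, 9.95% and 12.50% of the class in replicates 1, 2 and 3, against 4.78%, 5.53% and 6.76% of the start-proximal peaks, a difference of 5.80 ± 1.42 points (SD, n = 3; exact permutation p = 0.25, adjusted p = 0.312). The ranges did not overlap, and the conservative list gave 10.4% against 6.46%, with 5.78% of all conservative peaks and 1.44% of all genes at 227 bp upstream. TATA was present in 17.72%, 17.80% and 19.10%, against 9.11%, 9.92% and 9.52%, a difference of 8.69 ± 0.85 points. For TATA the share in the conservative list, 14.2%, was above the 10.8% of all conservative peaks but below the 18.80% of all genes at 227 bp upstream. The summit windows also had a lower GC content, 41.51%, 39.85% and 42.40%, against 42.97%, 42.47% and 43.76%, a difference of -1.81 ± 0.70 points, and its part in the TATA share was not tested. The remaining differences were small: the site of the early embryonic factor Zelda, CAGGTAG, 1.29 ± 0.27% against 0.26 ± 0.06%; the Ets site, CCGGAAG, 0.68 ± 0.35% against 0.13 ± 0.03%; the tRNA B box, 2.26 ± 0.46% against 1.31 ± 0.26%; and the su(Hw) sequence, TGCATACT, in none against 0.23 ± 0.07%. The same 4 sequences were at 0.61%, 0.38%, 0.57% and 0.39% of all genes at 227 bp upstream. For CTCF, E2F and AP-1, at 0.26%, 1.60% and 0.75% of all genes there, the differences did not exceed their SD.

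**Figure D4:**
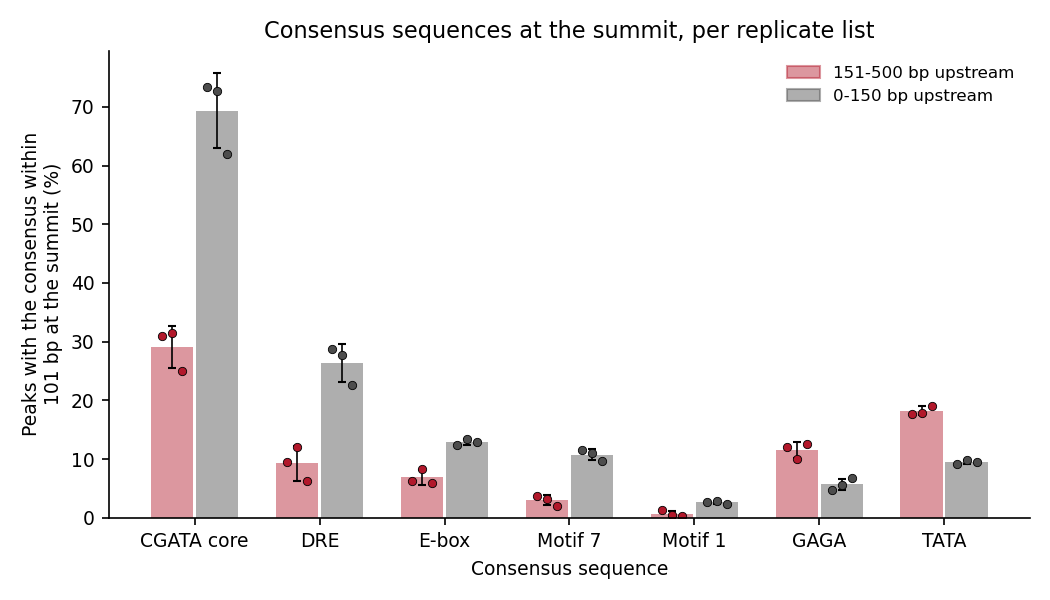
Share of peaks with each consensus sequence within 50 bp of the summit in percent (y axis) for 7 of the 15 searched (x axis), for the upstream peaks (red) and 0 to 150 bp upstream (grey); points are the 3 replicate lists, bars their mean and error bars the SD. The red points lie below the grey ones for the CGATA core, DRE, E-box, Motif 7 and Motif 1 and above them for GAGA and TATA.

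The elements were also placed differently around the summits. At the start-proximal peaks the DRE gathered under the summit, with 10.94% and 14.17% of peaks holding one in the 50 bp on either side and 2.05% and 3.31% in the next 50 bp. At the upstream peaks the corresponding shares were 3.46% and 2.20% beside the summit and 3.14% and 1.26% beyond. The median distance from the summit to the nearest DRE within 250 bp was 59.5 bp over 42 upstream peaks, against 25.5 bp over 390 start-proximal peaks. GAGA had no such maximum at the upstream peaks. At the start-proximal peaks it was in 4.17% to 4.33% per step from 100 bp on the far side of the summit to 49 bp towards the start site. In the other steps there it was in 0.63% to 2.91%. The median distance from the summit to the nearest GAGA within 250 bp was 73.0 bp at the upstream peaks, against 54.5 bp. At the upstream peaks its share per 50 bp was between 5.66% and 9.75% up to 150 bp on both sides of the summit, highest 50 to 99 bp towards the start site, and 112 of the 318 had a GAGA within 250 bp, or 35.2% against 15.7% of the start-proximal peaks. TATA was spread evenly at the upstream peaks, in 5.97% to 8.49% per 50 bp over 250 bp on both sides. At the start-proximal peaks it was in 9.76% to 13.31% per step beyond 50 bp on the side away from the start site, above the upstream peaks there, and in 2.99% to 5.91% in the other steps, below them.

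**Figure D5:**
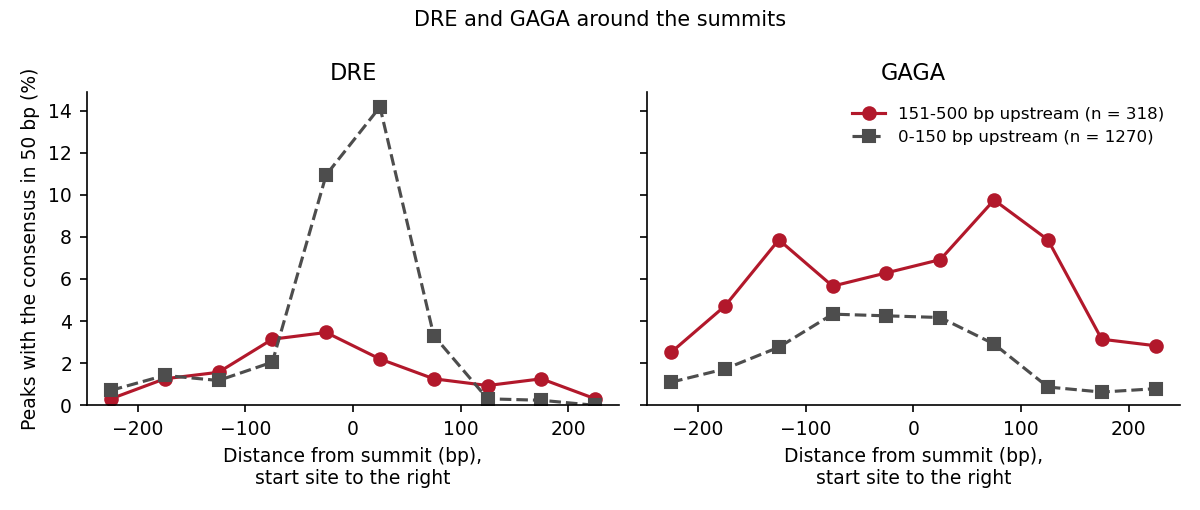
Share of peaks with a DRE (left) or GAGA (right) in steps of 50 bp (y axis, percent) by distance from the summit in bp (x axis, start site to the right), for the upstream peaks (red, n = 318) and 0 to 150 bp upstream (grey, n = 1270). The grey DRE line peaks at 14.17% beside the summit while the red one stays at or below 3.46%, and the red GAGA line lies above the grey one in every step.

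Counts of all 6-mers ranked GAGA-like words first. Among the 2080 distinct 6-mers, counted on both strands, the one with the largest excess over windows 500 bp to either side was AGAGAG, in 20.13% of the summits, against 5.03% of the flanks. AGAGCG followed with 16.04% against 3.46%, GAGAGC with 16.98% against 4.40% and GAGAGA with 16.04% against 4.40%. The fifth was CGATAG, part of the extended DRE, with 12.26% against 4.25%. The same 6-mers were at 11.18%, 11.42%, 12.05%, 8.90% and 38.27% of the start-proximal summits, so that the order of CGATAG and the GAGA-like words was turned round there. The words overlap one another and are not independent counts.

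The 17 peaks with a DRE were mostly strong and intergenic. Their median signal was 395.7, against 197.4 for the other 301, and 13 of the 17 were found in all 3 lists, or 76.5%. Of these 17, 14 lay between genes, or 82.4% against 51.9% of the class. The upstream neighbour was a gene read in the same direction for 11, or 64.7% against 50.6% of the class. The 4 strongest stood before tej, CG31493, CG31122 and chk, and others before RpL6, the chromatin gene sov, the kinase gene Tao, vis and achi, which encode paired TGIF-family homeodomain proteins, and Rpn11, a subunit of the proteasome lid. Beyond 400 bp 5 of 36 peaks held a DRE, or 13.9%, against 4.07%, 4.27% and 4.76% in the steps up to 200, 300 and 400 bp. The start site itself held a DRE within 50 bp for 3.46% of the class, against 17.64% for the start-proximal peaks, and only 1 peak had it in both places. At the start-proximal peaks, too, those with a DRE were strong, with a median signal of 439.8 and 83.6% found in all 3 lists.

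The 33 peaks with GAGA were of average strength. Their median signal was 204.2, against 202.1 for the others, and 10 of the 33 were found in all 3 lists, or 30.3%. The 82 start-proximal peaks with GAGA had a median signal of 204.0 and 36.6% found in all 3 lists. Of the 33, 16 lay inside the gene they were assigned to, or 48.5%, against 54.9% of the 82, and 11 held 3 or more copies, with at most 14, before Pdk1. The 4 strongest were kug, Mob2, CG18549 and cpo, which encodes an RNA-binding protein of the nervous system, with cpo at 133.24, 124.38 and 191.62 in replicates 1, 2 and 3. Others stood before sd, the TEAD partner of Yorkie, with 78.11, 71.97 and 132.05, brk, the repressor of Dpp targets, with 62.54 in replicate 2 alone, and disco, with 66.08 in replicate 1 and 99.29 in replicate 3. The peaks before btd and eya, a head gap gene and a retinal determination gene, were in none of the 3 thresholded lists. CG18549 alone carried both a DRE and GAGA, at a summit in the 3′ UTR of its neighbour vrs.

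Where the summit lay relative to genes differed as well. Of the 318 summits 165 were intergenic, 113 in introns, 15 in a 3′ UTR, 8 in a 5′ UTR, 4 in a coding exon and 13 in an exon of a non-coding gene. In 111, or 34.9%, the summit was annotated to the very gene whose start site it preceded, since a longer transcript of that gene began further upstream, against 20.5% of the start-proximal peaks. A summit in an exon of another gene could be counted for that gene alone, so these are lower bounds. A further start site of the same gene lay upstream of 116 summits, or 36.5%. Per replicate, the share of summits inside the own gene was 32.28%, 31.41% and 35.76%, against 19.11%, 16.70% and 22.45% of the start-proximal peaks. That difference was 13.73 ± 0.85 points (SD, n = 3, exact sign-flip permutation p = 0.25). Over these 116 peaks, the median distance to the further start site was 2902 bp, and in 12 it was at most 500 bp. Counted from the 5′ end of each gene instead of every transcript start, 205 of the 318 peaks kept their place, 103 were no longer near a promoter and 10 became downstream peaks.

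The next coding gene upstream, where it did not cover the summit, was by the median farther away than at the start-proximal peaks. Of the 318 peaks 161 had as upstream neighbour a gene in tandem, 114 a divergent one, and 43 lay inside another coding gene, 26 on the same strand and 17 on the opposite strand. Inside another coding gene on the same and the opposite strand were 8.18% and 5.35%, against 3.78% and 4.80% of the start-proximal peaks. Tandem neighbours ended a median of 991 bp beyond the summit, against 328.5 bp for the start-proximal peaks, and divergent ones began a median of 4848.5 bp away, against 1603 bp. These distances pass over the assigned gene itself, which held the summit for 34.9% of the class and 20.5% of the start-proximal peaks. The part of such summits in the difference was not tested. Peaks at divergent gene pairs were removed from both classes by the rule within 500 bp.

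Neighbouring summits limited how the peaks were placed. In the conservative list and in each replicate list no 2 summits were closer than 199 bp. Another summit lay within 500 bp of 88 of the 318 peaks, or 27.7%, against 191 of the 1270 start-proximal peaks, and in 58 of the 88 it was at most 220 bp away. The start site of 57 peaks, or 17.9%, also had a summit within 150 bp. Of the 301 genes, 17 had 2 peaks of the class. At 9 of these both stood before the same start site, such as HmgZ at 183 and 385 bp, and tup at 171 and 377 bp, and at 8, such as Hsc70-3, pum and l(2)gl, they stood before different start sites. Without the 88 peaks, 230 remained, of which 6.96% held a DRE, 12.2% held GAGA and 35.2% were found in all 3 lists. In the replicate lists, peaks with no other summit within 500 bp differed from the start-proximal ones by -17.86 points for the DRE, 7.02 for GAGA, 8.52 for TATA and -18.67 in signal percentile. The interval covered the start site in 180 of the 318 peaks, or 56.6%, against 96.7% of the start-proximal peaks; beyond 300 bp none did.

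Some of the peaks lay closer to the start of a non-coding gene than to the coding start site they were assigned to. Of the 318, 12 had the start of a tRNA gene within 500 bp, or 3.77%, with a median distance of 43.0 bp, against 3 of the 1270 start-proximal peaks, or 0.236%, and 2.25% of all conservative peaks. Per replicate the share was 3.80%, 3.14% and 4.86%, against 0.22%, 0.31% and 0.17%, a difference of 3.70 ± 0.94 points (SD, n = 3; exact sign-flip permutation p = 0.25). The median signal of the 12 was 309.8, 9 were above the median of the class, 202.19, and 6 were found in all 3 lists. The 3 below it were those before Root and AttD and the nearer of the 2 before Sema1a, with 192.15, 156.78 and 45.04. The strongest stood before CG31493, 48 bp from the start of tRNA:Gly-TCC-1-2, with signals of 189.24, 213.72 and 370.36 in replicates 1, 2 and 3. Next were Spag1, 84 bp from tRNA:Gln-TTG-1-3, Sema1a, 36 bp from tRNA:Asp-GTC-1-4, and CG4174, 6 bp from tRNA:Pro-CGG-2-3. The B box consensus searched, GTTCGANNC, was within 50 bp of 3 of the 12 summits. B boxes that differ from this consensus were not counted, so the others may also hold one. Beyond 400 bp 5 of 36 peaks were at tRNA genes, against 1 of 123 at up to 200 bp.

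The start of an annotated ncRNA gene lay within 500 bp of 22 of the 318 peaks, or 6.92%, against 4.88% of the start-proximal peaks, with elB, 34 bp from lncRNA:CR44733, and sov, 62 bp from lncRNA:CR43496, among the strongest. A single peak, before kek4, lay 2 bp from the start of snRNA:U2:34ABb, and 1, before CG13334, 88 bp from a snoRNA gene.

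Few of the gene groups examined had many peaks of this kind. Over all 13968 protein-coding genes 2.15% had one, and over the genes in any of the 20 lists 33 of 1033, or 3.19%. The lists with the largest parts were small: 3 of 12 genes of the ecdysone response, 4 of 25 chaperones, 5 of 33 segmentation and patterning genes, 4 of 28 genes of neural fate and axon guidance, and 4 of 41 signalling components. The ecdysone genes were the nuclear receptors ftz-f1, with 125.13, 143.45 and 159.23 in replicates 1, 2 and 3, Hr3, with 88.25, 76.60 and 144.88, and Eip75B, with 99.17 in replicate 3 alone. Hence ftz-f1 and Hr3 had a peak in every library and Eip75B in 1. High parts in these lists were not particular to the upstream class. Start-proximal peaks stood before 3 of the 12 ecdysone genes, 3 of the 25 chaperones and 4 of the 33 patterning genes. They also stood before 9 of the 28 neural genes and 10 of the 41 signalling genes. Each of these parts was above the 8.78% of all protein-coding genes with a start-proximal peak.

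Of the patterning genes, opa, a pair-rule transcription factor, had 81.91, 71.82 and 160.63 in replicates 1, 2 and 3, and dpp, the BMP ligand, 59.96 in replicate 1 and 101.09 in replicate 3. The peaks before wg, the Wnt ligand, and ci, the transcription factor of Hedgehog signalling, were in no thresholded replicate list. The chaperones were Hsp60A, with 132.69, 106.34 and 272.15, the endoplasmic reticulum chaperone Hsc70-3, and the small heat shock genes Hsp26 and Hsp27, each found in 1 replicate. The neural genes were Sema1a, an axon guidance molecule, SoxN, elav and pros, and the signalling genes sd, shn, sgg and spi.

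Among the housekeeping lists, 6 of 92 cytoplasmic ribosomal protein genes had a peak, RpL6, RpS10b, RpS23, RpL37-1, RpLP2 and RpS7, against 15 with a start-proximal peak. Over all protein-coding genes the shares were 2.15% and 8.78%. RpL6 had 119.34, 125.69 and 236.22 in replicates 1, 2 and 3 and RpS10b 151.54, 173.45 and 242.44. The proteasome had 1 of 48, Rpn11, which was in no replicate list, the respiratory chain 1 of 88, ND-13B, and membrane traffic 1 of 82, Vps16B. Of the remaining lists, 1 of 26 cytoskeletal genes, Act5C, 2 of 26 Polycomb and trithorax group genes, kis and ph-d, and 1 of 16 insulator and promoter factors, Trl, had a peak. Trl encodes the GAGA factor itself, and its peak, 358 bp upstream, had the conservative-list signal 39.27 and replicate summits at 137 and 152 bp in replicates 1 and 3. None was found among 73 mitochondrial ribosomal protein genes, 52 translation factors, 25 spliceosome genes and 56 genes of RNA polymerase and general factors. The same held for 8 Hox genes, 29 cell cycle and replication genes, 179 odorant and gustatory receptors and 95 cuticle protein genes. Of these lists, only receptors and cuticle proteins also lacked start-proximal peaks. The smaller lists are too short to tell an absence from the 2.15% of all protein-coding genes. Of the 301 genes, 66, or 21.9%, had a start-proximal peak as well, at the same or another start site, against 8.78% of all protein-coding genes.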

How the data were processed

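The members and lists were chosen with earlier results of these data known. Per the labels, coordinates are on dm6; neither aligner nor peak caller is given in the sources used here. The authors deposited peak lists per replicate and for the whole series, both ranked in full and cut at a threshold of the irreproducible discovery rate (IDR). The deposited signal is the peak caller's value on an unstated scale, used only within a list. The deposited score scales the IDR up to 1000, and the lowest score in the thresholded lists was 830. No read counts accompany them, so depth is unknown. Of the conservative list 2 peaks off the main arms were left out.

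Start sites were those of all protein-coding transcripts in Ensembl BDGP6.54, release 115. Distances, overlaps (50% of the shorter peak), 15 consensus sequences in 101 bp windows and 20 gene lists were computed with Python 3.11.15, numpy 2.4.6 and pandas 2.3.3 and checked on simulated data. Means over the 3 replicate lists were compared by an exact sign-flip permutation test, with Benjamini-Hochberg adjustment over consensus sequences. Named were the 20 strongest peaks found in all 3 replicates, the 3 strongest of each gene list, the 4 strongest with each consensus whose difference exceeded its SD or at each non-coding biotype, the 3 closest to each bound and the 5 leading 6-mers; others, such as Tao, vis, achi, disco, btd, eya, wg, ci and pros, were picked after their values were seen.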

Additional observations from a re-analysis of the deposited data

How the results depend on the processing

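The share of promoter peaks in the class, 7.61%, was 6.74% with gene 5′ ends as start sites, 4.73% with a lower bound of 200 bp, 12.88% with one of 100 bp, 9.69% with an upper bound of 1000 bp and 5.38% in the upper 50% by signal. The number of peaks, 318, was 195 with a lower bound of 200 bp, 518 with one of 100 bp and 136 in the upper 50% by signal. The 3 other series lists held 373, 326 and 285 such peaks. The share found in all 3 lists, 36.8%, was 28.0% with summits within 100 bp, against 58.8% of the start-proximal peaks. In the upper 50% by signal it was 67.6%, against 86.2% of the start-proximal peaks and 79.9% of all conservative peaks there. Leaving out 1 replicate gave 37.4 to 49.4% in both other lists, 49.4% without replicate 1, against 62.2 to 69.3% of the start-proximal peaks. Such a share cannot fall below the main one, since fewer lists are required. The signal percentile difference, -21.30, was 9.38 against peaks with the summit downstream. The small B box difference, 0.95 points, was -0.36 in the upper 50% by signal and -0.11 in 51 bp windows. The count of summits inside the own gene, 111, was 0 with gene 5′ ends, by construction. The peak width difference, 0, was 24.33 bp with gene 5′ ends and 179.00 bp in the upper 50% by signal. Over the 14 other differences that exceeded their SD, 149 of 152 recalculations kept the direction; CTCF, E2F and AP-1 were not recalculated. RefSeq transcript starts, an alternative added after the data were seen like that of summits with no other within 500 bp, kept all 318 peaks. Their values equalled the main ones throughout, so their part of the 152 recalculations tests little. The peak classes were compared within each replicate, so the differences are already paired. Unknown depth, 3 replicates and a minimum gap of 199 bp between summits limit these values.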
